A study of Mus musculus with 9 samples.

Results

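A set of 6 genes of the neurotrophin system, Ngfr, Bdnf, Ntf3, Ntrk2, Ntrk3 and Sort1, is described here across the 9 libraries of a mouse RNA-seq series, out of 56289 gene identifiers in its table of expression values. They were found by matching Ensembl identifiers to symbols, and all 6 matched. The set was selected on gene function with the FPKM values of all 9 libraries in view, so the levels and differences of these 6 genes are a description. No p-value is given for any of them, and how many passed the threshold applied to all genes is stated only as a count beside the share of all genes that passed, with nothing read from it. The labels name the cells RAW264.7, a macrophage-like line of BALB/c origin. The study took 3 libraries from untreated cells, 3 from cells that received TNF-alpha (tumour necrosis factor) for 24 h, called TNF here, and 3 from cells that received Wang Bi granules, a herbal medicine, along with TNF-alpha for 24 h, called TNF plus WBG here. The labels state no time for untreated cells, so time in culture and TNF cannot be told apart. Nothing in them says that replicates came from separate cultures, so the p-values below measure spread among libraries that may be technical. The gene lists below were also chosen with earlier results of these data known, so the p-values of their genes are descriptive. Expression is in FPKM, fragments scaled to the length of the gene and the size of the library, which allows levels of different genes to be set side by side.

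Neurotrophins are secreted growth factors that keep neurons alive and guide their growth, and they also act on glial and other cells. Bdnf, Ntf3 and Ntf5 are among their genes. Mature neurotrophins bind Trk receptor tyrosine kinases, among them those encoded by Ntrk2 (TrkB, the receptor of brain-derived neurotrophic factor) and Ntrk3 (TrkC, the receptor of neurotrophin-3). Neurotrophins also bind Ngfr, the low-affinity receptor known as p75NTR, which has no kinase, carries a death domain and belongs to the TNF receptor superfamily. Uncleaved proneurotrophins bind Ngfr together with Sort1 (sortilin), a sorting receptor that can also stand at the cell surface. In the nervous system Ngfr is well known on neural crest cells and on immature and injured Schwann cells.

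The labelled cell type was checked against its markers before any comparison. Of 14 macrophage markers, 4 (Ptprc, Itgam, Adgre1 and Tyrobp) were listed at 0 in all 9 libraries, and only Cd14 and Cd68 reached a mean of 1 FPKM. Of 12 Schwann and neural crest markers, 8 had a mean of at least 1 FPKM, among them the neural crest factor Sox10 (77.0 to 101 FPKM over the 9 libraries), Foxd3 (76.3 to 97.5 FPKM) and the neuregulin receptor Erbb3 (46.1 to 62.1 FPKM). The myelin gene Mbp stayed under 0.5 FPKM, and Gap43 was at most 0.0613 FPKM. Among the fibroblast markers 11 of 14 reached that mean, and among the neuronal markers 5 of 12. The macrophage label is therefore not borne out by these markers in any of the 3 groups, and every value below was measured in libraries of this kind. Since these are bulk libraries, fewer cells of a type and less RNA per cell cannot be told apart.

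**Figure D1:**
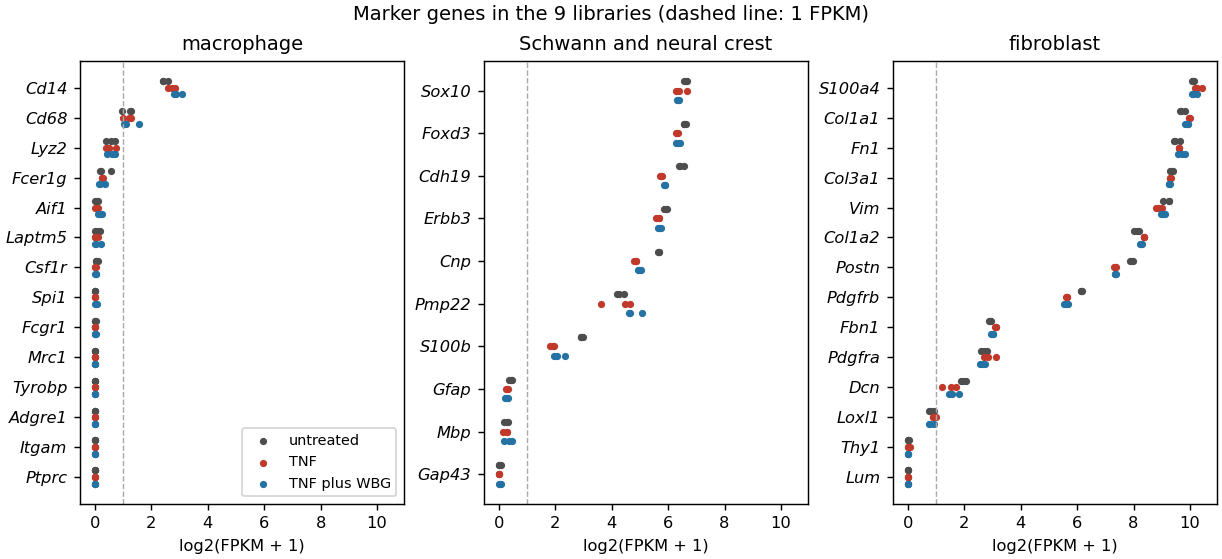
Marker genes on a log2(FPKM + 1) axis, with 1 point per library coloured by group and a dashed line at 1 FPKM. Most macrophage markers lie at or near 0 in all 9 libraries, while 7 of the 10 Schwann and neural crest markers drawn and 11 of 14 fibroblast markers have means above the line.

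The promoters of the most abundant receptor gene, Ngfr, and of Ntrk2, listed at 0 in every library, are shown because these genes mark the ends of the range of levels in this set. Each is the 250 bases before the annotated start in RefSeq (GRCm38.p6), 5′ to 3′ on the strand of the gene. Capitals mark the GC box, GGGCGG or its reverse complement CCGCCC. The Ngfr window lies at chr11:95587699-95587948 on the minus strand and the Ntrk2 window at chr13:58806319-58806568 on the plus strand.
Ngfr: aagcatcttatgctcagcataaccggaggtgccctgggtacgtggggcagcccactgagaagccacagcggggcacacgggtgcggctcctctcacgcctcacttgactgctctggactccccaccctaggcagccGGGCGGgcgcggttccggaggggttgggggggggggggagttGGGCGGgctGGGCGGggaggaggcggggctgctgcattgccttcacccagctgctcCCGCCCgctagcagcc
Ntrk2: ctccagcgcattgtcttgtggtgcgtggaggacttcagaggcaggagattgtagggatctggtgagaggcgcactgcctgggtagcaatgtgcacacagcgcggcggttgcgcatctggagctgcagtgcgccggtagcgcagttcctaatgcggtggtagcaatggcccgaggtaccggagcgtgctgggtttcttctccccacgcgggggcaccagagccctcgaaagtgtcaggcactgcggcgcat

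The Ngfr window held 4 GC boxes and a GC content of 70.4%, and the Ntrk2 window held 0 GC boxes and a GC content of 62.8%, where the median of 32851 windows of the same length was 52.4%. A GC box was found in 32.7% of those windows. Neither window held a TATA box (TATAAA or TTTATA, in 12.4% of windows) or the NF-kB consensus motif on either strand (in 7.25% of windows). The table holds 7 starts for Bdnf and 2 for Ntf3. Among the Bdnf windows, 2 held GC boxes and 1 held the NF-kB consensus motif. Each of the Ntf3 windows held 1 GC box. A match describes these letters only and is no measure of binding.

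Ngfr was by far the most abundant gene of the set. It had 169, 165 and 174 FPKM in the untreated libraries, 97.6, 96.7 and 96.7 FPKM in the TNF libraries, and 103, 97.3 and 109 FPKM in the TNF plus WBG libraries. All 6 treated libraries lay below all 3 untreated ones, and the TNF plus WBG libraries overlapped the TNF libraries. Lower values without overlap were found for 14.4% of all genes tested in TNF against untreated and for 13.6% in TNF plus WBG against untreated. Its mean over the 9 libraries (123 FPKM) ranked 420 among 13026 genes tested, above 96.8% of them. The TNF mean of 97.0 ± 0.54 FPKM was 0.573 times the untreated mean of 169 ± 4.41 FPKM (SD, n = 3). The log2 fold change was -0.80 ± 0.04 (standard error of the limma fit on log2 of FPKM plus 1, which also gives every log2 fold change below). TNF plus WBG had a mean of 103 ± 6.03 FPKM, with a log2 fold change of 0.09 ± 0.04 against TNF and -0.71 ± 0.04 against untreated.

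Sort1, the partner of Ngfr for proneurotrophins, stood at a much lower level. It had 5.95, 6.68 and 7.01 FPKM untreated, 7.20, 6.58 and 6.91 FPKM with TNF, and 5.88, 5.98 and 6.23 FPKM with TNF plus WBG. The untreated and TNF libraries overlapped, whereas all 3 TNF plus WBG libraries lay below all 3 TNF libraries, as did 7.72% of the genes tested (7.03% lay above without overlap). The log2 fold change of Sort1 was 0.07 ± 0.07 for TNF against untreated and -0.17 ± 0.07 for TNF plus WBG against TNF. The ratio of Ngfr to Sort1 FPKM within a library was 26.0 ± 2.15 untreated and 14.1 ± 0.57 with TNF (SD, n = 3). With TNF plus WBG it was 17.1 ± 0.71 (SD, n = 3). Ratios of gene pairs were not computed over all genes, so nothing is read from their separation between groups. An opposite-strand gene (Gm12523) overlaps exons of Sort1 in GENCODE M21, and without strand its reads could not be separated from those of Sort1.

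Bdnf, the gene of brain-derived neurotrophic factor, was the only ligand gene of the set above 1 FPKM. It had 3.36, 3.24 and 3.62 FPKM untreated, 3.71, 3.79 and 3.5 FPKM with TNF, and 3.41, 3.52 and 2.93 FPKM with TNF plus WBG. The 3 groups overlapped pairwise, and its mean of 3.46 FPKM exceeded that of 22.7% of the genes tested. The log2 fold change was 0.08 ± 0.08 for TNF against untreated and -0.13 ± 0.08 for TNF plus WBG against TNF. An opposite-strand gene (Gm45346) overlaps its exons, with the same limit as for Sort1.

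The Trk receptors of the set were at or near 0. Ntrk2 was listed at 0 in all 9 libraries. Ntrk3 had 0.0309, 0.046 and 0.005 FPKM untreated, 0.0842, 0.0311 and 0.146 FPKM with TNF, and 0.0482, 0.0815 and 0.0266 FPKM with TNF plus WBG, with overlap between all groups. Ntf3, the gene of neurotrophin-3, was listed at 0 in 7 libraries, with 0.0259 FPKM in untreated replicate 1 and 0.0357 FPKM in TNF plus WBG replicate 3. The file holds no counts, so no limit of detection is given for these genes, and no fold is given for them.

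By level, the order of the set was Ngfr, Sort1, Bdnf, Ntrk3, Ntf3 and Ntrk2, and the ranges over the 9 libraries of the first 3 did not overlap each other. The highest Ntrk3 value (0.146 FPKM) lay below the lowest Bdnf value (2.93 FPKM), while the ranges of Ntrk3 and Ntf3 overlapped near 0. Ngfr, Bdnf and Sort1 reached 1 FPKM in all 9 libraries and so passed the filter on low values, and Ntf3, Ntrk2 and Ntrk3 did not and were not fitted. In TNF against untreated, 1 of the 3 fitted genes, Ngfr, passed the threshold of an adjusted p under 0.05, where 10.6% of all genes passed (6.43% higher and 4.21% lower). In TNF plus WBG against untreated it was again Ngfr alone, where 9.19% passed (5.52% higher and 3.67% lower). These 2 comparisons share the untreated libraries. In TNF plus WBG against TNF 0 of the 3 passed by limma, and 0.0998% of all genes passed (0.0691% higher and 0.0307% lower). At an unadjusted p under 0.05 the count was 1 of the 3, beside 9.06% of all genes. The median log2 fold change of the 3 genes was 0.07 for TNF against untreated, -0.10 for TNF plus WBG against untreated and -0.13 for TNF plus WBG against TNF, beside medians over all genes of 0.0, -0.003 and -0.003.

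**Figure D2:**
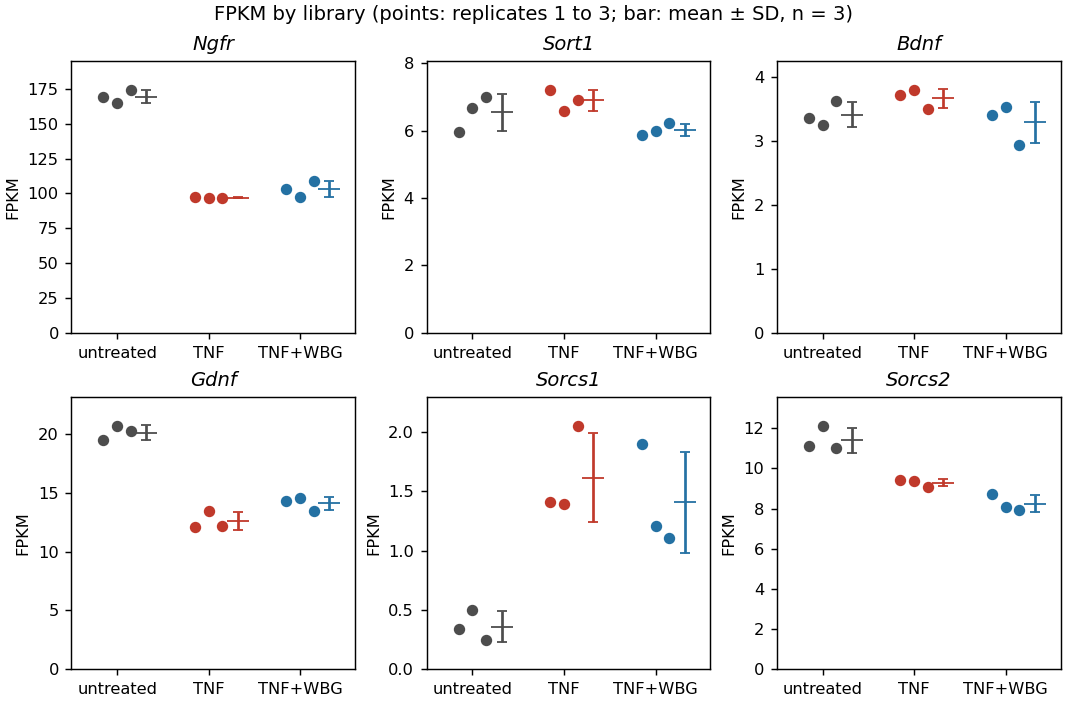
FPKM of Ngfr, Sort1, Bdnf, Gdnf, Sorcs1 and Sorcs2 in each library, with 1 panel per gene, each on its own linear axis from 0, points for replicates and a bar for the mean ± SD (n = 3). Ngfr and Gdnf lie lower in all 6 treated libraries than in any untreated library, Sorcs1 lies higher, and Bdnf overlaps between groups.

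Ntf5, the gene of neurotrophin-4 and not in the set, lay between 0.11 and 0.544 FPKM and was not fitted. The highest value of Ntrk2 or Ntrk3 in any library was 0.146 FPKM, so Ngfr was the only neurotrophin receptor among these 3 with a level above 1 FPKM.

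Among relatives of sortilin, the sorting receptor gene Sorcs1 had a higher mean with TNF and Sorcs2 a lower one, each with a limit given below. Sorcs2, which also pairs with Ngfr for proneurotrophins, had 11.1, 12.1 and 11 FPKM untreated, 9.41, 9.37 and 9.07 FPKM with TNF, and 8.71, 8.08 and 7.93 FPKM with TNF plus WBG. The 3 groups did not overlap, in that order. Lower values without overlap were found for 14.4% of all genes tested in TNF against untreated and for 7.72% in TNF plus WBG against TNF. Its log2 fold change was -0.27 ± 0.06 with TNF (limma adjusted p = 0.0183) and -0.15 ± 0.06 for TNF plus WBG against TNF (limma adjusted p = 0.503). The TNF call was lost without untreated replicate 2, TNF replicate 2 or TNF replicate 3 (limma adjusted p = 0.0527 to 0.0674). Sorcs1 had 0.357 ± 0.13 FPKM untreated and 1.62 ± 0.38 FPKM with TNF (SD, n = 3), a log2 fold change of 0.94 ± 0.15. It passed the filter only through the treated libraries, so its call is not used as support. Sorl1 had means of 7.71, 7.25 and 6.60 FPKM in the untreated, TNF and TNF plus WBG groups and did not pass with TNF (limma adjusted p = 0.465). Sorcs3 was listed at 0 throughout. Opposite-strand genes overlap exons of Sorcs1 (Gm45352) and Sorl1 (Gm16214), with the same limit as for Sort1.

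**Figure D3:**
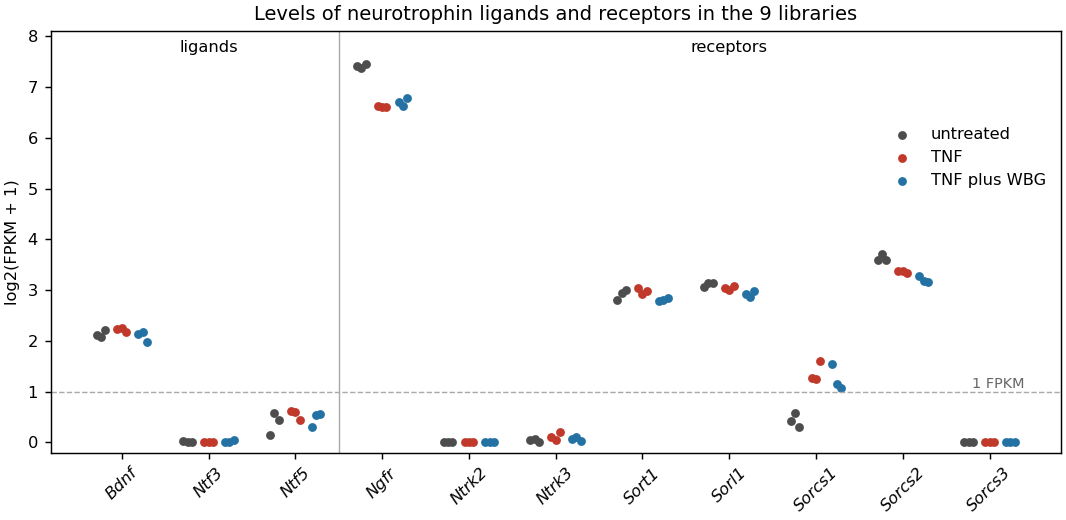
Levels of 3 ligand genes and 8 receptor genes on a log2(FPKM + 1) axis, with 1 point per library coloured by group and a dashed line at 1 FPKM. Ngfr stands above all the others in every library, and Ntf3, Ntrk2, Ntrk3 and Sorcs3 lie at or near 0.

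Markers moved with TNF beside Ngfr. Of the 8 fitted Schwann and neural crest markers, 5 fell with TNF, 0 rose and 3 did not pass. Of all genes, 4.21% fell and 6.43% rose. The median log2 fold change of the 8 markers was -0.27. S100b fell from 6.70 ± 0.15 to 2.71 ± 0.19 FPKM, the myelin enzyme gene Cnp from 49.8 ± 0.57 to 27.6 ± 0.84 FPKM, and the cadherin gene Cdh19 from 86.8 ± 5.62 to 52.9 ± 1.59 FPKM (SD, n = 3). Erbb3 and Foxd3 fell as well, at log2 fold changes of -0.28 and -0.26, while Sox10 (-0.17, limma adjusted p = 0.274) did not pass. The summed FPKM of the 12 markers ran from 805 to 858 untreated, 682 to 744 with TNF and 739 to 764 with TNF plus WBG. Of the 11 fitted fibroblast markers, 3 fell with TNF, 3 rose and 5 did not pass (median log2 fold change 0.10). The part of marker genes in the Ngfr values was not tested.

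The 28 genes listed as partners, proteases and signalling factors of the Ngfr protein included 22 that could be fitted. With TNF 4 rose, 1 fell and 17 did not pass, beside 6.43% of all genes that rose and 4.21% that fell. These shares stand beside the counts with TNF of each list below as well. The median log2 fold change of the 22 genes was 0.09. Ripk2, a kinase that binds the death domain of the Ngfr protein, rose 2.23-fold from 6.43 ± 0.12 to 14.4 ± 0.47 FPKM (SD, n = 3). Adam17, the protease that cleaves the Ngfr ectodomain, rose 1.39-fold (log2 0.45 ± 0.06), and Adam10, a related protease, fell (log2 -0.19 ± 0.04). The Adam10 call was lost without untreated replicate 3, TNF replicate 1 or TNF replicate 3. Arhgdib, an inhibitor of small GTPases, rose 1.53-fold, from 5.87 ± 0.96 to 9.0 ± 0.57 FPKM (SD, n = 3).

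Rtn4, the gene of the growth inhibitor Nogo, had 37.6, 39.7 and 37.6 FPKM untreated and 93.3, 98.0 and 102 FPKM with TNF. With TNF plus WBG it had 95.7, 35.9 and 33.5 FPKM, so replicate 1 of that group lay in the TNF range and the other two below the untreated range. Its log2 fold change with TNF was 1.33 ± 0.33 (limma adjusted p = 0.0344), a call lost in 8 alternatives, among them each omission of an untreated or TNF library (limma adjusted p = 0.0523 to 0.104 over the 8). Between TNF plus WBG and TNF it was -0.99 ± 0.33 and did not pass (limma adjusted p = 0.481). Without TNF plus WBG replicate 1, the library that stood apart from its group, it was -1.47. Leaving out the discordant library narrows the spread by construction, so nothing is read from the call gained there (limma adjusted p = 4.31e-05). The abundant partners Maged1 (171, 167 and 160 FPKM in the 3 group means) and Arhgdia (262, 269 and 269 FPKM), which encodes an Ngfr-binding protein, did not pass in TNF against untreated.

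Of 38 adaptors and kinases that act downstream of Trk receptors, 35 were fitted, beside Ntrk2 and Ntrk3 at or near 0. With TNF 4 rose, 1 fell and 30 did not pass, and the median log2 fold change was 0.01. Sqstm1, a scaffold also tied to autophagy, rose 1.17-fold to 238 ± 4.82 FPKM, and the regulatory PI3 kinase subunit Pik3r1 rose 1.25-fold to 29.5 ± 0.23 FPKM (SD, n = 3). Gab1, a docking protein, rose 1.17-fold and the adaptor Sh2b3 1.49-fold, the latter call being lost in 8 alternatives (limma adjusted p = 0.052 to 0.115). The Ras exchange factor gene Sos2 fell from 8.97 ± 0.41 to 5.95 ± 0.71 FPKM (SD, n = 3). The count of falls was 2 without TNF plus WBG replicate 2, with no filter on low values and in a fit of only the 6 libraries compared. Kidins220, a scaffold for Trk and Ngfr proteins, had a log2 fold change of 0.08 (limma adjusted p = 0.837).

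Proneurotrophins are cut by furin-like convertases inside the cell and by plasmin and matrix metalloproteinases outside it. Of 18 genes listed for this step 11 were fitted, of which 2 rose, 3 fell and 6 did not pass with TNF (median log2 fold change -0.04). Plat, the tissue plasminogen activator, fell from 67.4 ± 0.88 to 53.4 ± 1.86 FPKM, and its inhibitor Serpine2 (protease nexin) rose from 21.8 ± 2.02 to 57.9 ± 8.07 FPKM (SD, n = 3). Furin (log2 -0.16 ± 0.04) and the gelatinase Mmp2 (-0.17 ± 0.03) fell, and the Furin call was lost in 11 alternatives (limma adjusted p = 0.0533 to 0.127). The gelatinase Mmp9 rose by a log2 of 2.12 ± 0.08, having passed the filter only through the treated libraries. This rise is counted among the 2 and in the median but, as for Sorcs1, is not used as support. Plg, the plasmin precursor, had a mean of at most 0.0158 FPKM in a group.

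Among 18 genes often induced by Trk signalling 11 were fitted, and 2 rose, 4 fell and 5 did not pass with TNF (median log2 fold change -0.07). Jun fell from 101 ± 1.77 to 40.2 ± 1.52 FPKM, Fos from 9.18 ± 0.98 to 4.66 ± 0.56 FPKM, and Egr1 from 7.41 ± 0.30 to 4.66 ± 0.18 FPKM (SD, n = 3), all immediate early transcription factors. Egr3 fell as well (log2 -0.59 ± 0.12). Junb rose 1.37-fold and the nuclear receptor Nr4a1 1.27-fold. The rises became 1 on leaving out untreated replicate 1 or 3 or TNF replicate 1 or 3, in each case by the loss of Nr4a1. The Egr3 call was lost without untreated replicate 3 or TNF replicate 3, and with no filter on low values. Vgf, a neuropeptide precursor gene widely used as a readout of neurotrophins, had group means of at most 0.131 FPKM.

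Other neurotrophic factors and their receptors made up a list of 21 genes, of which 14 were fitted. With TNF 5 fell, 1 rose and 8 did not pass, with a median log2 fold change of -0.25. Gdnf, the glial cell line-derived factor, had 19.5, 20.7 and 20.3 FPKM untreated, 12.1, 13.5 and 12.2 FPKM with TNF, and 14.3, 14.6 and 13.5 FPKM with TNF plus WBG. Untreated libraries were all above treated ones, and its log2 fold change with TNF was -0.64 ± 0.06 (limma adjusted p = 0.000119). Of all genes tested, 14.4% lay lower without overlap in TNF against untreated and 13.6% in TNF plus WBG against untreated. Cntf, the ciliary neurotrophic factor, fell from 4.65 ± 0.25 to 1.46 ± 0.09 FPKM, and its receptor Cntfr from 4.10 ± 0.23 to 2.39 ± 0.13 FPKM (SD, n = 3). Artn (artemin) and Gfra2, a co-receptor of the Gdnf family, fell by 0.34 and by 0.57 on the log2 scale, and the leukemia inhibitory factor receptor Lifr rose 1.39-fold. Exons of Cntf overlap a same-strand gene (Zfp91) in GENCODE M21. Ret, the kinase that signals for Gdnf, had group means of at most 0.00561 FPKM.

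Within the TNF receptor superfamily, to which Ngfr belongs, 6 of 15 fitted relatives rose, 2 fell and 7 did not pass with TNF (median log2 fold change 0.23, 24 genes listed). The death receptor Fas rose 5.17-fold and Tnfrsf10b 1.36-fold, whereas Tnfrsf25, also a death receptor gene, fell from 9.03 ± 0.78 to 6.04 ± 0.24 FPKM and the death receptor gene Tnfrsf21 from 24.4 ± 1.0 to 20.5 ± 0.39 FPKM (SD, n = 3). Tnfrsf9 rose from 4.08 ± 0.94 to 21.4 ± 9.68 FPKM, with TNF libraries at 32.5, 16.0 and 15.5 FPKM. Tnfrsf14 rose by a log2 of 0.84 and Tnfrsf23 by 0.49, the latter lost in 6 alternatives (limma adjusted p = 0.0534 to 0.107). Tnfrsf14 and Fas (0.998 FPKM in untreated replicate 2) met the filter only with treated libraries. Their rises are counted among the 6 and in the median but are not used as support. The count of falls was 0 without TNF replicate 1, and it was 1 on leaving out any untreated library, TNF replicate 2 or TNF replicate 3. Tnfrsf1a, a receptor of TNF itself, had 36.0, 36.7 and 36.1 FPKM untreated. With TNF it had 34.7, 56.1 and 56.8 FPKM (limma adjusted p = 0.167). Without TNF replicate 1, which stood apart from the other TNF libraries, its log2 fold change was 0.62 (limma adjusted p = 6.84e-05). As for Rtn4, nothing is read from that call. The ratio of Ngfr to Tnfrsf1a FPKM was 4.67 ± 0.16 untreated and 3.0 ± 0.19 with TNF plus WBG (SD, n = 3). With TNF it was 2.08 ± 0.64 (SD, n = 3), from library values of 2.81, 1.72 and 1.7. Tnfrsf1b, also a TNF receptor gene, had means of 16.6 FPKM untreated and 16.0 FPKM with TNF (limma adjusted p = 0.639).

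**Figure D4:**
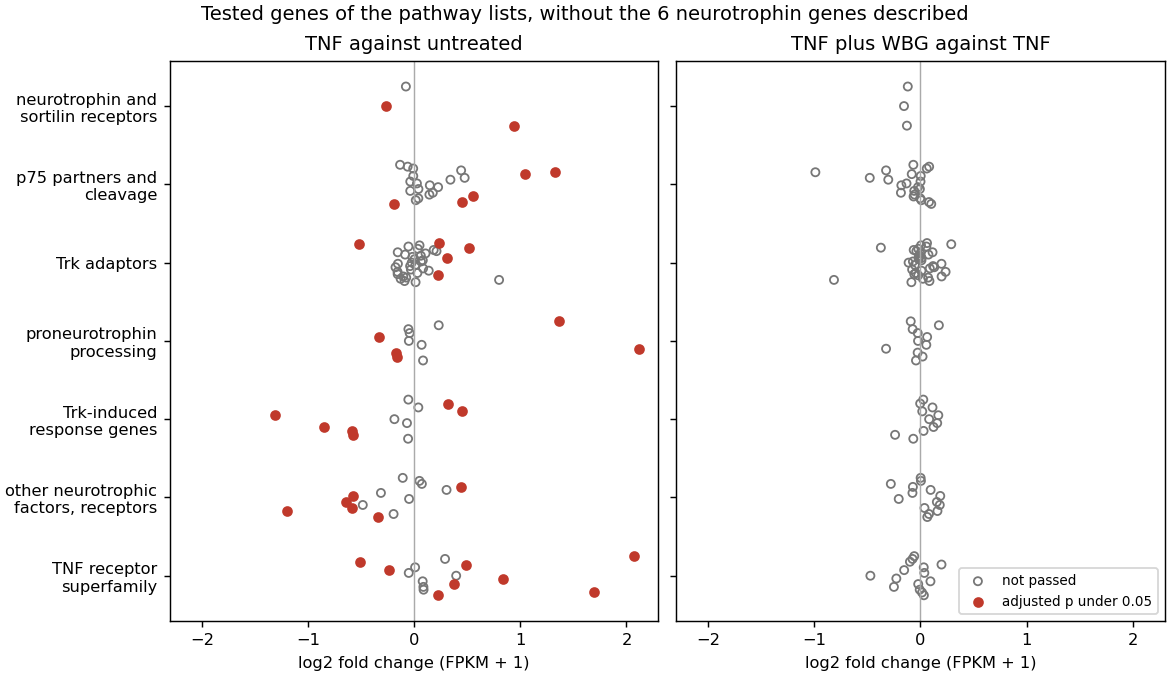
Log2 fold changes (FPKM plus 1) of the fitted genes of 7 lists, with TNF against untreated on the left and TNF plus WBG against TNF on the right, filled points for a limma adjusted p under 0.05 and Ngfr, Bdnf and Sort1 left out. Filled points lie on both sides of 0 for TNF, and there are 0 for TNF plus WBG against TNF.

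For TNF plus WBG against TNF, 0 genes of these 7 lists passed by limma. With 1 library left out, 1 gene fell in each of 3 lists: Rtn4 without TNF plus WBG replicate 1, Crk without TNF replicate 3 and Tnfrsf1a without TNF replicate 1. In each case the library left out stood apart from its group, so these calls are not used as support. Unadjusted p-values under 0.05, found for 9.06% of all genes, were found for 1 of 3 receptors of the sortilin family outside the set, 5 of 22 genes around the Ngfr protein, 6 of 35 Trk adaptors, 1 of 11 processing genes, 2 of 11 response genes, 2 of 14 other neurotrophic genes and 2 of 15 TNF receptor relatives. The comparison shares the TNF libraries with TNF against untreated, so the values of the 2 comparisons are only set side by side. Against untreated, the TNF plus WBG mean of Gdnf (14.1 against 20.2 FPKM) was lower, and the gene passed there too (limma adjusted p = 0.000728).

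The group means of Ngfr spanned 0.80 on the log2 scale, less than the 1 set for naming genes of like pattern. The 5 genes nearest to it were therefore taken after its values were seen, by the root mean square distance between centred log2 profiles over the 9 libraries among 8857 genes. They were the semaphorin Sema3e (distance 0.05), the cytochrome P450 gene Cyp2j9 (0.05), Luzp2 (0.06), the growth factor Fgf5 (0.07) and the small heat shock gene Cryab (0.07). Sema3e had group means of 19.3, 10.2 and 11.1 FPKM, and Fgf5 of 65.5, 37.2 and 40.1 FPKM, in the untreated, TNF and TNF plus WBG groups.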

How the data were processed

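The authors deposited a table of FPKM, 1 value per gene and library, labelled as such per the labels. Per the labels' protocols, poly-A RNA was sequenced as paired-end libraries on an Illumina NovaSeq. Names of the aligner, FPKM program, annotation and build were not given in the sources used here. Symbols were matched through GENCODE M21 (55144 matched, 1145 did not). The table holds no counts. Opposite-strand genes also overlap exons of other named genes, among them Rtn4 (Eml6), Adam17 (Iah1), Sh2b3 (Atxn2) and Junb (Prdx2). Some listed genes are not reported here. Low values of single-exon genes, multiplied by length, clustered at whole multiples of 1 unit (31.4 to 35.3% lay within 0.02 units of one, against 4% for an even spread). This gives a depth of 1.00 to 1.38 relative to the shallowest library, while absolute depth is unknown. FPKM sums ran from 427781 to 436809.

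Genes with at least 1 FPKM in at least 3 of 9 libraries (13026) were fitted with limma 3.58.1 (R 4.3.3) on log2 of FPKM plus 1, with trend, using all 9 libraries and no covariate. All tests were two-sided with Benjamini-Hochberg adjustment over all genes fitted, and 0.05 as the threshold. The pipeline was tested on simulated data. The 6 genes and all lists were chosen with earlier results of these data known. Of each list, the text names up to 6 genes whose mean reached 1 FPKM in some group and that were called in TNF against untreated or in TNF plus WBG against TNF, by absolute change, and, with no call, the most abundant. Ntf5, Sorl1 and Sorcs3 were named as ligand or receptor genes, whether called or not. Maged1, Arhgdia, Kidins220, Crk, Rtn4r, Vgf, Plg, Ret, Tnfrsf1a, Tnfrsf1b, Tnfrsf21 and the single marker genes lie outside these rules. They were picked with their values known. Alternatives were pseudocounts of 0.1 and 5, no filter, median-ratio scaling, fits of only the 6 libraries compared, a replicate block and omission of each library. Tables used pandas 2.3.3 and numpy 2.4.6 under Python 3.11.15, and plots matplotlib 3.10.9.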

Additional observations from a re-analysis of the deposited data

How the results depend on the processing

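The log2 fold change of Ngfr kept its sign under all 15 alternatives, at -0.82 to -0.77 for TNF against untreated, 0.04 to 0.13 for TNF plus WBG against TNF and -0.75 to -0.67 for TNF plus WBG against untreated. Bdnf kept its sign in the first 2 (0.04 to 0.12 and -0.17 to -0.06) and ranged from -0.08 to 0.02 in the third. Sort1 ranged from 0.01 to 0.11, from -0.20 to -0.11 (its lowest size with a pseudocount of 5) and from -0.16 to -0.06. The counts of the 6 genes called were the same under all alternatives. Over all genes, the falls with TNF numbered 549 and ran from 353 to 515 with 1 library left out (353, 356 and 359 without untreated replicate 3, TNF replicate 2 and TNF replicate 3). The 4 falls for TNF plus WBG against TNF became 1 in a fit of only the 6 libraries compared, 2 with the replicate block, and 1 to 5 with 1 library left out, where the lowest values came without untreated replicates 1 (1) and 3 (2). The causes were not tested.

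The replicate numbers did not pair the libraries: correlations of deviations from the group means between same-numbered libraries ran from -0.07 to 0.11. With the block, which is therefore given only here, the Rtn4 and Furin calls with TNF were lost (limma adjusted p = 0.0523 and 0.0888) and Rtn4r was called (0.0473). In TNF plus WBG against untreated Artn and Tnfrsf14 were lost (limma adjusted p = 0.0579 and 0.0551), and the block changed no other call among the listed genes. Of 112 listed genes outside the set in 3 comparisons, 17 calls ended under at least 1 alternative and 16 were gained under at least 1, counting a gene once in each comparison. Without counts, values near 0 cannot be told from sampling noise, and the 3 libraries per group limit every error.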

Other observations

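Several genes of the lists took values at separate levels within a group. Crk, a Trk adaptor gene, had 34.9, 28.5 and 10.7 FPKM in the TNF libraries against 10.7 to 13.7 FPKM in the 3 untreated ones. Its log2 fold change of 0.80 with TNF did not pass (limma adjusted p = 0.207), and without TNF replicate 3 it was 1.29 (limma adjusted p = 0.000807). TNF replicate 3 is the library apart from its group, so nothing is read from that call. Tnfrsf9 stood at 14.7, 31.0 and 15.7 FPKM in the TNF plus WBG libraries, and Pmp22, a myelin protein gene, at 21.3, 24.4 and 11.3 FPKM in the TNF libraries.

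Of 12 neuronal markers 5 were fitted, and 4 fell with TNF: Tubb3 from 55.3 to 16.1 FPKM, Uchl1 from 12.4 to 3.91 FPKM, Nefm from 6.34 to 2.22 FPKM and Nefl from 4.19 to 1.81 FPKM. Map2 had means of 8.67 FPKM untreated and 12.4 FPKM with TNF and did not pass (limma adjusted p = 0.141). Its values were higher in all 3 TNF libraries, as for 15.5% of all genes tested. Elavl4, Rbfox3 and Dcx were listed at 0 in all 9 libraries. The summed FPKM of the list was 85.4 to 88.4 untreated, 35.0 to 39.4 with TNF and 40.9 to 43.0 with TNF plus WBG.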
